A study of Mus musculus with 20 samples.

Results

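Macrophages and the monocytes they come from are held in their lineage by a small set of transcription factors, proteins that bind DNA and set which genes are read. Of the 9 factors looked for by gene symbol (Spi1, Cebpa, Cebpb, Klf2, Klf4, Maf, Irf5, Irf8 and Bhlhe40), 8 were found among the 59311 genes of the deposited table, and Maf was not analysed here. All 8 passed the filter on low values, which kept the 17248 genes with a mean normalized count of at least 10 in at least 1 group.

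The libraries came from young adult male C57BL/6 mice in which 4 weeks of CCl4, a liver toxin, had produced a fibrotic liver, and this injury was shared by every group. Mice 16 to 20 were given Ac-6-FP, a ligand of MR1 that keeps mucosal-associated invariant T (MAIT) cells from being activated, and mice 11 to 15 were given its vehicle. From the liver of each of the 10 mice, Ly6Chi and Ly6Clo monocyte-derived macrophages (MoMac) were sorted as CD11b+ F4/80+ cells negative for CD3, CD11c and Ly6G, which gave 20 libraries and 4 groups of 5. Ly6Chi and Ly6Clo were therefore compared within mouse, and Ac-6-FP with vehicle between mice within each subset.

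PU.1, the product of Spi1, is the factor without which no macrophages form, and C/EBPα, the product of Cebpa, acts with it to bring progenitors into the myeloid lineage. C/EBPβ serves mature monocytes and inflammatory responses, whereas KLF2 and KLF4 restrain inflammation, and KLF4 is also needed for monocytes to form. IRF8 commits progenitors to the monocyte and dendritic cell lineages, IRF5 drives inflammatory cytokines, and BHLHE40 is a repressor of transcription that limits IL-10 and supports the proliferation of macrophages.

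The values are normalized counts, that is, reads on a gene divided by 1 size factor per library. As they are not divided by gene length, the levels of members were not compared with each other as amounts of RNA. The libraries held 5693049 to 18682437 reads on genes, and 5343 to 15766 genes were detected in them. The Ly6Clo vehicle library of mouse 13 stood apart, with the fewest reads and the fewest genes detected (the next library had 9017), and a value of 0 was listed there for 2765 of the 6652 genes whose median reached 100. Results were therefore given with and without it. All 9 Ly6Chi monocyte markers were higher in Ly6Chi MoMac, and Ly6c2 itself was at 7403 ± 1691 (SD, n = 10) in Ly6Chi and 688 ± 198 in Ly6Clo MoMac, whereas the gating genes Itgam and Adgre1 did not pass the test.

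The members differed in depth, and so in how finely they could be measured. Klf2 had between 7 and 119 reads per library (median 48), Cebpb between 30 and 586 (median 96), and Spi1 between 4 and 329 (median 98). Cebpa had a median of 348 reads, Irf8 of 872, Klf4 of 1000, Irf5 of 1819 and Bhlhe40 of 2490. In bulk samples such as these, fewer cells of a type and less RNA per cell cannot be told apart.

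**Figure D1:**
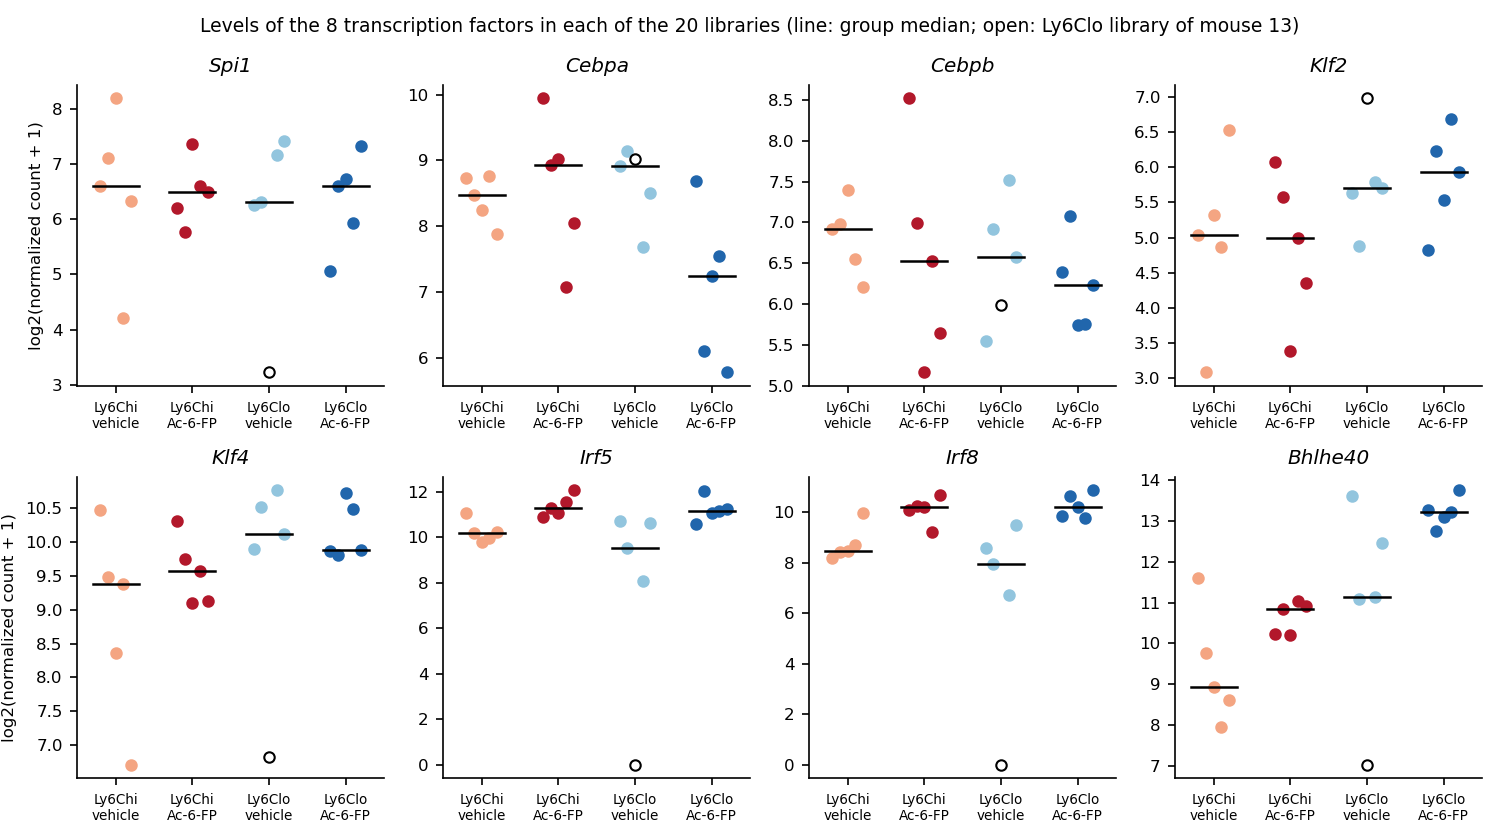
Level of each of the 8 factors as log2(normalized count + 1) in every library, by subset and treatment, with a line at the group median and an open circle for the Ly6Clo library of mouse 13. Bhlhe40 was higher in Ly6Clo than in Ly6Chi groups, Irf5 and Irf8 had higher medians in the Ac-6-FP groups, and Cebpa had its lowest median in the Ly6Clo Ac-6-FP group.

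Promoters are shown for Irf5 and Irf8, since their levels followed each other across libraries and were higher with Ac-6-FP in the exact tests given further on. RefSeq promoters were at hand for 6 of the 8 members (Cebpa, Cebpb, Klf2, Klf4, Irf5 and Irf8) and not for Spi1 and Bhlhe40. The 250 bases before the start of transcription are written 5′ to 3′ on the strand of the gene, in GRCm38.p6, Irf5 from chr6:29526375-29526624 (+ strand) and Irf8 from chr8:120736108-120736357 (+ strand), with capitals for matches to any of 5 motifs: GAGGAA (the PU.1 box), TTGCNNAA (sites of C/EBP factors), GAAANNGAA (the core of the interferon response element), TTCNNNGAA (the GAS element bound by STAT factors) and CACGTG (the E-box bound by BHLHE40).
Irf5: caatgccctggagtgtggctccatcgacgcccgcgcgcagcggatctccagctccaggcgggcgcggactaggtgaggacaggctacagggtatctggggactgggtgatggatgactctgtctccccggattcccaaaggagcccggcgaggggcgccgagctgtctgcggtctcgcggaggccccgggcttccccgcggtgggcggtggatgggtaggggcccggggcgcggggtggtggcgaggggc
Irf8: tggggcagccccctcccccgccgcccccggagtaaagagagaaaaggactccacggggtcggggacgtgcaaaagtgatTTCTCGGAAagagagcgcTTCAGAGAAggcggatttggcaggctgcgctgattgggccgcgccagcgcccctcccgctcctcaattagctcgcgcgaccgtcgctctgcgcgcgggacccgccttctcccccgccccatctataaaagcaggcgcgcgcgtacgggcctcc

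The Irf8 window held TTCNNNGAA at 2 places, 171 and 153 bases before the start, a motif found in 7.04% of 32526 promoter windows of this length searched on both strands. The Irf5 window held none of the 5 motifs, and neither did those of Cebpa, Cebpb and Klf2. The Klf4 window held CACGTG, found in 6.04% of promoters, 182 bases before its start. For the others the background was 23.4% for GAGGAA, 9.57% for TTGCNNAA and 7.15% for GAAANNGAA. CACCC, a box bound by KLF factors, was in 52.1% of promoters and in those of Cebpa, Cebpb, Klf2 and Irf5. A second start site of Irf8 held none of these motifs. These are matches of letters only.

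Bhlhe40 was the member called between the subsets. It was lower in Ly6Chi than in Ly6Clo MoMac in 9 of 10 mice, at 1336 ± 911 (SD, n = 10) against 7175 ± 4587 normalized counts. In Ly6Chi MoMac of vehicle mice 11 to 15 it was at 3128, 876, 485, 246 and 388, and in their Ly6Clo MoMac at 12492, 2161, 129, 2266 and 5629.7. In Ly6Chi MoMac of Ac-6-FP mice 16 to 20 it was at 1190.3, 1834, 1173, 2089 and 1946, and in their Ly6Clo MoMac at 9926, 6972, 8792, 9596 and 13790.4. Mouse 13 alone went the other way, through the Ly6Clo library that stood apart, and in the Ac-6-FP mice the subsets did not overlap. The share of all genes without such an overlap of subsets was not computed.

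The log2 difference of Bhlhe40, Ly6Chi minus Ly6Clo, was -2.14 (SE 0.44, 95% CI -3.10 to -1.18), a 4.4-fold lower level on the scale of log2(normalized count + 1). It passed the test across all genes (limma with mouse as a block, Benjamini-Hochberg adjusted p = 0.0125), and the two-sided exact permutation test over 10 mice gave p = 0.00586, where 0.00195 is the smallest it can give. Bhlhe40 was the only called member, 1 of 8, when 5.19% of all 17248 genes were called (303 higher and 593 lower in Ly6Chi), and the only member with the same sign in at least 9 mice, which 9.43% of all genes had.

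Without mouse 13 the difference of Bhlhe40 was -2.59 (SE 0.24, limma adjusted p = 4.51e-05), with all 9 remaining mice lower in Ly6Chi. Within Ac-6-FP mice alone it was -2.58 (SE 0.20, limma adjusted p = 0.00881) and within vehicle mice alone -1.69 (SE 0.90, limma adjusted p = 0.64). The limma call was lost when mouse 15, 16 or 20 was left out, with adjusted p-values of 0.0538, 0.0527 and 0.0534, and without the block (adjusted p = 0.0813).

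**Figure D2:**
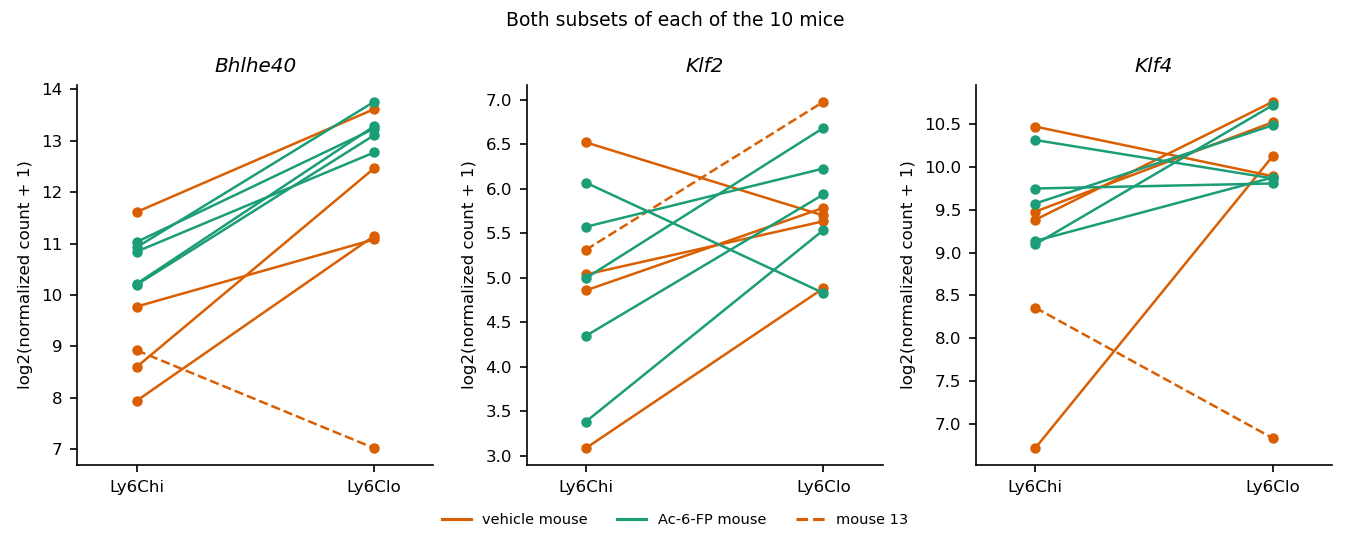
Bhlhe40, Klf2 and Klf4 as log2(normalized count + 1) in the Ly6Chi and Ly6Clo MoMac of each mouse, joined by a line, with vehicle mice in orange, Ac-6-FP mice in green and mouse 13 dashed. Bhlhe40 was lower in Ly6Chi in 9 of 10 mice, Klf2 in 8 and Klf4 in 7.

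Markers of other cells moved with the subsets. The summed level of 5 NK cell markers, all called, was 41810 to 93250 in Ly6Clo and 0 to 672 in Ly6Chi libraries. That of 7 neutrophil markers, 3 of them called, was 10260 to 129700 against 3045 to 6851, and that of 8 dendritic cell markers, 3 called, was 7730 to 19410 against 205 to 1017. The 6 T cell markers found summed to 796 to 4267 in Ly6Clo and 0 to 272 in Ly6Chi libraries. Of the 4 that were tested, Lck was called, lower in Ly6Chi in 10 of 10 mice, and of the CD3 chains that define T cells, Cd3e was listed at 0 in all libraries of 3 groups, whereas Cd3g had a mean of 56.0 in Ly6Clo and 7.24 in Ly6Chi and Cd3d of 32.8 and 22.5. All 4 markers of granulocyte and monocyte progenitors were higher in Ly6Chi, where they summed to 1837 to 14430. Hepatocyte markers were all 5 below 0 with 1 called, and summed to 1351 to 2961 in Ly6Clo against 484 to 1201 in Ly6Chi libraries. Of B cell, endothelial and Kupffer cell markers, 4 were tested in each list, all 4 were below 0 and 1 was called. The part of these cells in the difference of Bhlhe40 was not tested. The annotated gene of Bhlhe40 (chr6:108660628-108666925, mm10) also overlaps 0610040F04Rik, whose level followed it (r = 0.983 over 20 libraries), and whether the reads were counted by strand is not given in the sources used here.

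The 2 KLF factors had lower mean levels in Ly6Chi than in Ly6Clo MoMac, but neither was called. Klf2 (chr8:72319033-72321654) was at 31.9, 7.49, 38.8, 28.0 and 91.0 in Ly6Chi and at 48.7, 28.5, 125, 54.2 and 51.0 in Ly6Clo MoMac of vehicle mice. In Ac-6-FP mice it was at 66.2, 46.7, 9.44, 30.9 and 19.4 in Ly6Chi and at 27.4, 74.0, 45.4, 102 and 60.3 in Ly6Clo MoMac. The ranges overlapped, although 8 of 10 mice were lower in Ly6Chi. Its log2 difference was -0.90 (SE 0.54, 95% CI -2.07 to 0.27), with an exact permutation p of 0.0371 and a limma adjusted p of 0.437, and the exact p became 0.0703 without mouse 13.

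Klf4 was at 1422, 713, 326, 667 and 104 in Ly6Chi and at 951, 1473, 113, 1739 and 1118 in Ly6Clo MoMac of vehicle mice. In Ac-6-FP mice Klf4 was at 1275, 860.3, 547, 761 and 562 in Ly6Chi and at 934, 896, 1691, 1437 and 941 in Ly6Clo MoMac. The subsets overlapped in vehicle and in Ac-6-FP mice, and 7 of 10 mice were lower in Ly6Chi. Its log2 difference was -0.66 (SE 0.41, 95% CI -1.55 to 0.23, limma adjusted p = 0.452, exact permutation p = 0.162). Without mouse 13 it was -0.91 (95% CI -1.71 to -0.10, limma adjusted p = 0.197, exact permutation p = 0.043), without mouse 15 it was -0.36, and with edgeR without mouse 15 it was -0.30. Klf4 shares its locus (chr4:55527139-55532477, mm10) with an unnamed annotated gene whose value was within 10% of that of Klf4 in 15 libraries, so the reads of these genes may be shared.

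The factors that define the lineage did not separate the subsets at this spread. Spi1 (chr2:91096096-91115758, mm10) ranged from 17.4 to 290.3 (median 92.1) in Ly6Chi and from 8.35 to 168 (median 86.7) in Ly6Clo MoMac, a log2 difference of 0.29 (SE 0.67, 95% CI -1.17 to 1.74, limma adjusted p = 0.847). Leaving out mouse 13, in which Spi1 was at 290.3 in Ly6Chi and 8.35 in Ly6Clo MoMac, turned the sign (-0.23). Cebpb (chr2:167688915-167690432), whose start is overlapped by Tmem189, ranged from 34.9 to 366 (median 107) in Ly6Chi and from 46.0 to 183 (median 78.7) in Ly6Clo MoMac, a difference of 0.31 (SE 0.46, 95% CI -0.69 to 1.32, limma adjusted p = 0.739). Both intervals hold differences of either sign.

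Cebpa (chr7:35118791-35121932) was higher in Ly6Chi in 5 of 10 mice and lower in 5, with a log2 difference of 0.65 (SE 0.44, 95% CI -0.31 to 1.61, limma adjusted p = 0.484). Of the 5 mice higher in Ly6Chi, 4 were Ac-6-FP mice and 1 was a vehicle mouse, which is taken up with Ac-6-FP. Irf5 and Irf8 had differences of 1.32 (SE 0.84, 95% CI -0.50 to 3.14) and 1.01 (SE 0.76, 95% CI -0.64 to 2.66). Mouse 13 weighed heavily here, as Irf5 and Irf8 were listed at 0 in its Ly6Clo library, where 3 reads would be a value of 6.26, and without mouse 13 the differences were 0.38 (SE 0.24) and 0.18 (SE 0.26). When the genes detected per library entered the model with all 10 mice, limma called Irf5 (1.89, adjusted p = 0.0108) and Irf8 (1.51, adjusted p = 0.0357) higher in Ly6Chi. That fit was not run without mouse 13, whose Ly6Clo library had 5343 genes detected against 9749 in its Ly6Chi library. In Ac-6-FP mice alone, without the genes detected in the model, the differences of Irf5 and Irf8 were 0.15 and -0.17.

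With Ac-6-FP, Irf5 and Irf8 were the members whose exact tests were lowest in each subset, in the direction of a higher level. None of the 8 members was called across all genes in Ly6Chi, where 0.0754% of genes were called, or in Ly6Clo MoMac, where 0.0522% were. Over all genes, limma gave an unadjusted p under 0.05 to 1506 genes in Ly6Chi and to 1605 in Ly6Clo, and edgeR called 0 genes in each. The 32 exact tests of members (8 in each of 4 comparisons) are given unadjusted.

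Irf8 (chr8:120736356-120756690) was at 289, 347, 349, 418 and 1003 in Ly6Chi MoMac of vehicle mice and at 1092, 1220.4, 1198, 594 and 1634 in those of Ac-6-FP mice. In Ly6Clo MoMac it was at 379.8, 249, 0, 106 and 731 in vehicle mice and at 919, 1603, 1177, 865 and 1867 in Ac-6-FP mice. The treatments did not overlap in Ly6Clo MoMac, and in Ly6Chi MoMac they overlapped through mice 15 and 19. In Ly6Clo, Irf8 was the only member whose treatments did not overlap, 1 of 8, when 1.5% of all genes had no overlap, and in Ly6Chi no member did, against 1.35% of all genes.

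The log2 difference of Irf8, Ac-6-FP minus vehicle, was 1.34 in Ly6Chi (SE 0.38, 95% CI 0.49 to 2.20, limma adjusted p = 0.397), with a two-sided exact permutation p of 0.0159. In Ly6Clo it was 3.71 (SE 1.59, 95% CI 0.13 to 7.28, limma adjusted p = 0.532), with an exact permutation p of 0.00794, the smallest that 5 mice against 5 can give. Without the library of mouse 13 the difference of Irf8 in Ly6Clo was 2.07 (SE 0.53, 95% CI 0.86 to 3.27, limma adjusted p = 0.64), and the treatments still did not overlap.

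Irf5 (chr6:29526625-29541871, overlapped at its end by Tnpo3) was at 2185, 1162, 901, 1013 and 1217 in Ly6Chi MoMac of vehicle mice and at 1927, 2475, 2185, 2994 and 4283 in those of Ac-6-FP mice. In Ly6Clo MoMac it was at 1670.2, 732, 0, 266 and 1565 in vehicle mice and at 1528, 4192, 2178, 2297 and 2444 in Ac-6-FP mice. Mouse 11 in Ly6Chi and mice 11 and 15 in Ly6Clo reached the range of the Ac-6-FP mice. The difference was 1.11 in Ly6Chi (SE 0.28, 95% CI 0.47 to 1.76, limma adjusted p = 0.366, exact permutation p = 0.0159). In Ly6Clo the difference of Irf5 was 3.45 (SE 1.86, 95% CI -0.74 to 7.63, limma adjusted p = 0.564, exact permutation p = 0.0238), and 1.5 (SE 0.56, 95% CI 0.23 to 2.77) without mouse 13.

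Libraries of Ac-6-FP mice also held more detected genes, 11096 to 15587 against 9017 to 14606 in Ly6Chi and 11156 to 15766 against 5343 to 15723 in Ly6Clo MoMac. The median log2 difference of all genes with Ac-6-FP was 0.35 in Ly6Chi and 0.91 in Ly6Clo, the latter 0.35 without mouse 13, and the differences of members are to be read against it. Over the 20 libraries the correlation with the number of genes detected was 0.74 for Irf5, 0.703 for Irf8 and 0.773 for Bhlhe40, and without the Ly6Clo library of mouse 13 it was 0.672, 0.494 and 0.689. With that number in the model and all libraries kept, the difference of Irf5 was 0.58 (SE 0.21) in Ly6Chi and 0.90 (SE 1.35) in Ly6Clo. That of Irf8 was 1.36 (SE 0.50) and 1.58 (SE 1.18). None of these differences was called (limma adjusted p of 0.74 and 0.988 for Irf5, and of 0.78 and 0.966 for Irf8). B cells and dendritic cells are known to hold Irf8. B cell markers summed to 0 to 778 in vehicle and 766 to 1131 in Ac-6-FP Ly6Clo libraries, and dendritic cell markers to 10820 to 19410 and 7730 to 16470. The latter sum was mostly Cd209a (mean 11870 over Ly6Clo libraries). Of the 8 dendritic cell markers, 6 were above 0 in Ly6Clo (median 1.64 beside 0.91 for all genes), and 5 without mouse 13 (0.81 beside 0.35). In Ly6Chi libraries they summed to 242 to 565 in vehicle and 205 to 1017 in Ac-6-FP mice, with 4 above and 3 below 0 (median 0.65 beside 0.35). In Ly6Chi libraries the B cell sums were 80.2 to 743 and 172 to 319, with Ms4a1 listed at 0. The 4 progenitor markers had a median difference of 2.12 in Ly6Chi and 2.70 in Ly6Clo, all 4 above 0 in each, and summed to 1837 to 7098 in vehicle and 3818 to 14430 in Ac-6-FP Ly6Chi libraries, and to 0 to 390.3 and 25.5 to 1786 in Ly6Clo libraries. In Ly6Chi, T cell markers summed to 0 to 55.8 in vehicle and 0 to 272 in Ac-6-FP libraries (median difference 2.4, beside 0.35 for all genes), and NK cell markers to 0 to 457 and 51.8 to 672 (median difference 1.22). In Ly6Clo, T cell markers summed to 796 to 3235 in vehicle and 2021 to 4267 in Ac-6-FP libraries, and Kupffer cell markers to 0 to 337 and 187 to 808. Endothelial markers summed there to 0 to 2115 and 1008 to 4451, and neutrophil markers to 10260 to 59780 and 20450 to 129700. The T cell sums in Ly6Clo were mostly Lck, which had a mean of 2251 over Ly6Clo and 25.1 over Ly6Chi libraries, whereas the CD3 chains had the low means given above. No gene of these lists was called with Ac-6-FP by limma. The part of these cells and of the number of genes detected in the results was not tested.

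**Figure D3:**
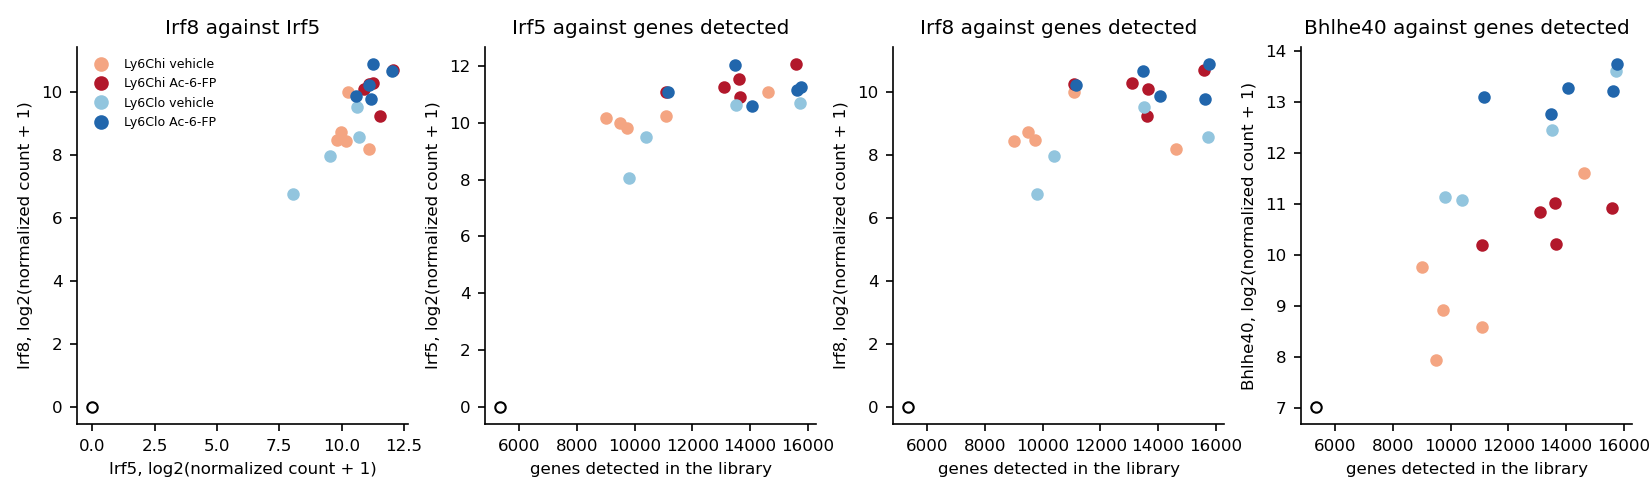
Irf8 against Irf5, and Irf5, Irf8 and Bhlhe40 against the number of genes detected, in the 20 libraries, with levels as log2(normalized count + 1), colours for the 4 groups and an open circle for the Ly6Clo library of mouse 13. Irf5 and Irf8 followed each other (r = 0.963, and 0.812 without the open circle), and Bhlhe40 was higher where more genes were detected (r = 0.773).

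Irf5 and Irf8 were the pair of members most alike across libraries, with a Pearson correlation of 0.963 over 20 libraries and 0.812 over the 19 without mouse 13 in Ly6Clo. Among 6961 genes of sufficient level, those most like Irf5 were Acly (r = 0.987) and Anapc5 (r = 0.984), and those most like Irf8 were Rbm42 // Haus5 (r = 0.969) and Nelfb (r = 0.968). For Bhlhe40 they were 0610040F04Rik, which overlaps it, and H2-Oa (r = 0.901), and among members Bhlhe40 was most like Klf4 (r = 0.708, and 0.60 without mouse 13). The closest genes were Tlr6 (r = 0.852) to Spi1, Fem1c (r = 0.888) to Klf4, N4bp1 (r = 0.794) to Klf2, Nme1 (r = 0.692) to Cebpa and Pomp (r = 0.691) to Cebpb. These are descriptions over libraries that also share depth and the number of genes detected.

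Bhlhe40, whose values are given above, lay in 4 of 5 vehicle mice below all Ac-6-FP mice in Ly6Chi MoMac, mouse 11 being the exception. Its difference with Ac-6-FP was 1.27 in Ly6Chi (SE 0.62, 95% CI -0.14 to 2.68, exact permutation p = 0.111) and 2.16 in Ly6Clo (SE 1.04, 95% CI -0.17 to 4.49, exact permutation p = 0.0635). The treatments overlapped in each subset, and in Ly6Clo the difference of Bhlhe40 was 1.15 without mouse 13. When the genes detected entered the model it was 0.30 (SE 0.59) in Ly6Chi and 0.57 (SE 0.54) in Ly6Clo.

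Cebpa had the largest difference towards a lower level with Ac-6-FP among the 8 members, in Ly6Clo MoMac. There it was at 484, 565, 518, 204 and 362 in vehicle mice and at 412, 67.3, 151, 185 and 53.8 in Ac-6-FP mice, of which mouse 16 alone reached the range of the vehicle mice. In Ly6Chi MoMac it was at 423, 355, 304, 432 and 235 in vehicle mice and at 985, 486, 517, 134 and 262 in Ac-6-FP mice, which spread on either side of the vehicle mice. The difference was -1.59 in Ly6Clo (SE 0.59, 95% CI -2.90 to -0.27, limma adjusted p = 0.528, exact permutation p = 0.0317) and 0.18 in Ly6Chi (SE 0.49, 95% CI -0.92 to 1.29, exact permutation p = 0.738). Without mouse 13 the difference in Ly6Clo was -1.50, with an exact permutation p of 0.0556.

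The change of Cebpa in Ly6Chi minus its change in Ly6Clo was 1.77 (SE 0.76, 95% CI 0.10 to 3.44), with a limma p of 0.0398 that was 0.83 when adjusted and an exact permutation p of 0.0317. Without mouse 13 it was 1.64 (95% CI -0.0028 to 3.27), with an unadjusted limma p of 0.0503 and an exact permutation p of 0.0635. Within vehicle mice the mean difference between subsets was -0.23, with 1 of 5 mice higher in Ly6Chi, and within Ac-6-FP mice it was 1.53, with 4 of 5 higher. No gene was called for such a difference of changes by limma or by edgeR (0%), whereas 840 genes had an unadjusted limma p under 0.05. The criterion of the study takes the mean of the vehicle mice as fixed and pairs the subsets of the 5 Ac-6-FP mice, at an unadjusted p of at most 0.05 and a fold of at least 1.5. It was applied here to the 17248 genes past the filter on low values, not to genes chosen by the background cut of the study. By it 4 of 8 members passed (Cebpa, Irf5, Irf8 and Bhlhe40), when 21.9% of all genes did. The differences were -2.33 for Irf5 (95% CI -5.85 to 1.19) and -2.36 for Irf8 (95% CI -5.47 to 0.75), and without mouse 13 they were -0.50 and -0.80. For Bhlhe40 it was -0.89 (95% CI -2.83 to 1.05) with and 0.01 without mouse 13.

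The remaining members showed no detectable difference with Ac-6-FP at this spread. Spi1 was at 95.6, 137, 290.3, 17.4 and 79.1 in vehicle and 72.4, 53.2, 163, 96.2 and 88.7 in Ac-6-FP Ly6Chi MoMac, with a 95% CI of -1.56 to 1.55 around a log2 difference of -0.001. In Ly6Clo its difference was 0.26 (95% CI -1.68 to 2.20), and -0.45 without mouse 13. Cebpb differed by -0.24 in Ly6Chi (95% CI -1.61 to 1.12) and by -0.27 in Ly6Clo MoMac (95% CI -1.46 to 0.92). The values of Klf2 and Klf4 above overlapped between treatments, with differences of -0.09 and 0.69 in Ly6Chi and of 0.05 and 0.53 in Ly6Clo, the last turning to -0.17 without mouse 13. With all libraries, the intervals of Klf2 and Klf4 all held 0. Among these, the widest was -1.90 to 1.73 for Klf2 in Ly6Chi and the narrowest -1.31 to 1.40 for Klf2 in Ly6Clo.

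**Figure D4:**
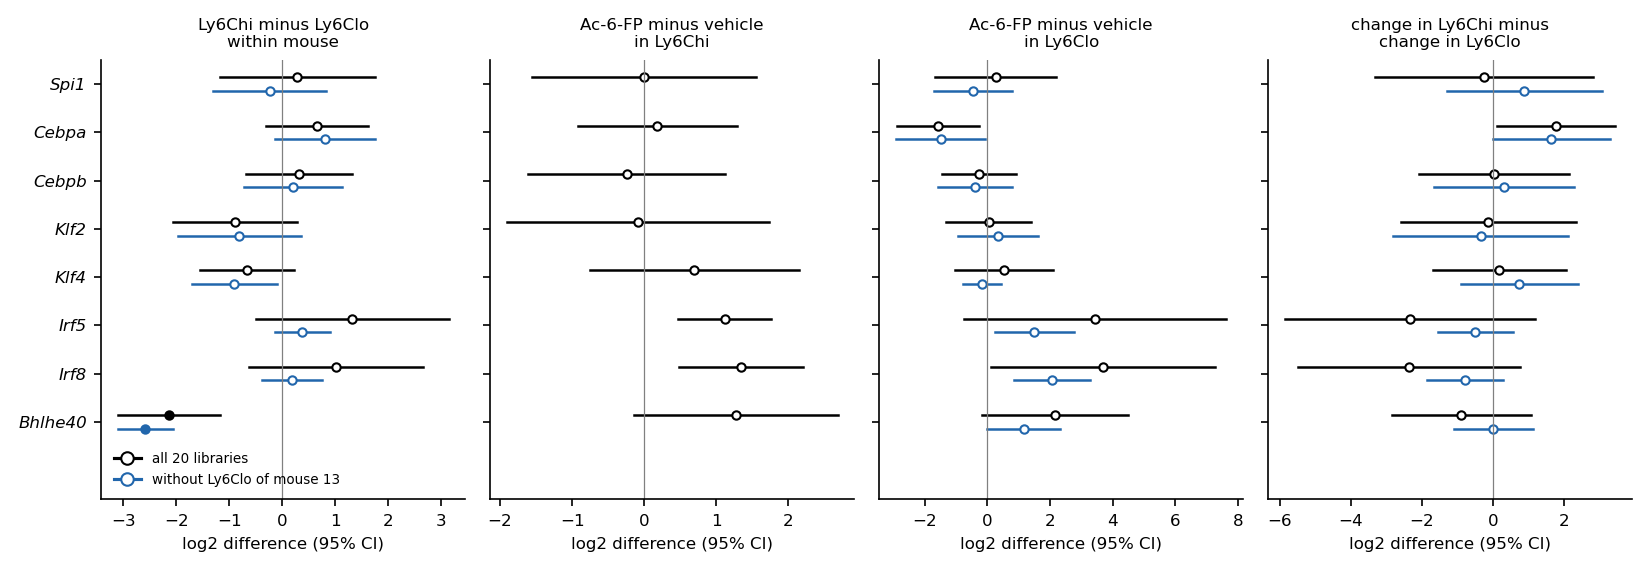
log2 difference of each member with its 95% CI from limma in the 4 comparisons, from all 20 libraries (black) and without the Ly6Clo library of mouse 13 (blue; within-mouse comparisons then leave out mouse 13), with filled points for an adjusted p under 0.05. Bhlhe40 between the subsets was the only filled point, and the intervals of Irf5 and Irf8 narrowed without mouse 13.

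Relatives of the members and other myeloid factors were looked at as lists. Of 20 relatives, 19 were tested, and between the subsets, where 5.19% of all genes were called, 2 were called higher and 2 lower in Ly6Chi. Their median difference was 0.18 beside -0.03 for all genes. Without mouse 13, when 6.74% of all genes were called, 1 relative was called higher and 3 lower. Klf13 was higher in Ly6Chi, 13570 ± 2025 against 9458 ± 1782 (0.53, SE 0.13, limma adjusted p = 0.0296). Klf6, a factor of activated macrophages, was lower in Ly6Chi in 10 of 10 mice, 7400 ± 1572 against 11640 ± 3398 (-0.63, SE 0.10, limma adjusted p = 0.00182). Bhlhe41, the close paralogue of Bhlhe40, was at 0.09 ± 0.28 in Ly6Chi and 13.1 ± 12.3 in Ly6Clo (limma adjusted p = 0.0216), and so near the lowest measurable level.

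Of 36 other myeloid factors, 35 were tested, and 1 was called higher and 4 lower in Ly6Chi (median -0.51), beside 5.19% of all genes called in either direction. Without mouse 13, when 6.74% of all genes were called, 1 was called higher and 7 lower (median -0.68, beside -0.17 for all genes). Id2, an inhibitor of helix-loop-helix factors, was lower in 10 of 10 mice, 1785 ± 651 against 5625 ± 1781 (-1.66, SE 0.14, limma adjusted p = 7.47e-06). Nr1h3, the oxysterol receptor LXRα, was at 167 ± 109 against 1363 ± 710.2 (-3.76, SE 0.60, limma adjusted p = 0.00192). Pparg, a lipid sensing receptor, was at 53.2 ± 63.9 against 745 ± 431 (limma adjusted p = 0.00334), and Egr2 at 20.2 ± 56.7 against 533 ± 405 (limma adjusted p = 0.00173). Tfec, a factor of the MiT family, was called higher in Ly6Chi, at 146 ± 99.4 against 75.3 ± 199 (limma adjusted p = 0.039), and was higher in 8 of 10 mice. Nr4a1, which Ly6Clo monocytes need, was at 9880 ± 6054 in Ly6Chi and 9321 ± 7830 in Ly6Clo and did not pass (0.59, SE 0.28, limma adjusted p = 0.325).

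Of 25 genes known to answer to the members, 23 were tested, and 1 was called higher and 5 lower in Ly6Chi (median -0.99), where 5.19% of all genes were called and their median was -0.03. Without mouse 13, when 6.74% of all genes were called, 0 of the 23 were called higher and 6 lower by limma (median -1.76, beside -0.17 for all genes), the call of Cd14 being lost (adjusted p = 0.0603). Cd14, the lipopolysaccharide co-receptor and a C/EBP target, was higher, 18140 ± 5693 against 11260 ± 4736 (0.75, SE 0.19, limma adjusted p = 0.0368). Il10, which BHLHE40 represses, was lower in Ly6Chi, at 7.26 ± 22.9 against 802 ± 587 (limma adjusted p = 0.000426), so that Il10 and Bhlhe40 were on the same side. The complement genes C1qa (127 ± 138 against 711 ± 496, limma adjusted p = 0.0447) and C1qb (444 ± 327 against 2707 ± 1229, limma adjusted p = 0.0246) and the mannose receptor gene Mrc1 (4.47 ± 12.1 against 194 ± 188, limma adjusted p = 0.0305) were lower too. Of the called genes named here, Klf6, Bhlhe41, Egr2, Pparg, Nr1h3, Id2 and Il10 were called whichever of the 10 mice was left out. Klf13, Tfec, Mrc1 and C1qb were called in 3 of these 10 fits, Cd14 in 2 and C1qa in 1. Most of these genes were listed at 0 in some libraries, so the size of their differences depends on the pseudocount. NK cell and neutrophil markers moved the same way, as given above, and their part here was not tested either. With Ac-6-FP, none of the 19 relatives, the 35 other factors and the 23 answering genes was called by limma in either subset, and edgeR called 0 genes in all. Their median differences in Ly6Chi were 0.28, 0.74 and 0.16 beside 0.35 for all genes. In Ly6Clo they were 1.46, 2.09 and 0.83 beside 0.91, and without mouse 13 they were 0.11, 1.10 and 0.23 beside 0.35, so that the relatives lay above all genes with that library and below them without it.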

How the data were processed

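Sequencing values of 20 libraries (10 mice, both subsets of each) were analysed. The deposited signal values are normalized counts: per the study's methods the authors aligned reads to mm10 with STAR 2.4.0, counted them on the constitutive regions of FAST DB genes and divided them by 1 DESeq2 size factor per library. The values are whole multiples of 1 step per library (100.00% of values above 0, tolerance 0.006), so reads could be recovered. In the Ly6Chi library of mouse 15 the step lies close to 1, so that this was not a check there, and edgeR was also run without mouse 15. Reads carry no molecular identifiers, so the 3 reads that a 0 allows cover counting error only.

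Libraries were grouped by the labels. Values were tested as log2(normalized count + 1) with limma 3.58.1 (R 4.3.3, trend over the mean level) on 17248 genes with a group mean of at least 10, Benjamini-Hochberg adjusted, at 0.05, with mouse as a block for comparisons between subsets. Single members were also tested by two-sided exact permutation. The pairing comes from the liver that both subsets were sorted from. Residuals of libraries of the same mouse correlated by 0.0338 in the median (0.00334 to 0.25), against -0.00319 between other mice. Alternatives were a pseudocount of 10, no filter, a filter at 100, quantile normalization, the genes detected as covariate, edgeR 4.0.16, no block, each mouse left out, mouse 13 in Ly6Clo left out, each treatment alone and the criterion of the study (an unadjusted paired p of at most 0.05 and a fold of at least 1.5). The fits were also run on simulated counts, which held no differences between mice and no library with an excess of values of 0. Those runs are therefore no check on such features, and their outcome is not reported here.

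The members and lists were chosen with earlier results of these data known. Named besides the members are list genes with an adjusted p under 0.05, at most 6 per list and comparison, the sorting genes and the closest genes by correlation. Nr4a1 was planned with the sorting genes. Genes that overlap a member are also named, and so are some markers of other cells whether called or not (Lck, Cd3d, Cd3e, Cd3g, Ms4a1 and Cd209a). Spelling and coordinates follow the deposited table, and sequences come from RefSeq. A few list genes are counted in their lists but not reported here by name.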

Additional observations from a re-analysis of the deposited data

Results flagged for a closer look

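In 5 of the 32 groups of 5 libraries of the 8 members, 1 library lay far from the other 4 by Dixon's criterion. The criterion was applied to the normalized counts, not to the log2 values used in the tests, and it assumes normally spread values. How often it flags a group over all genes was not computed, so 5 of 32 cannot be read as an excess. The libraries flagged were Cebpb in Ly6Chi MoMac of Ac-6-FP mouse 16 (366), Klf2 in Ly6Clo MoMac of vehicle mouse 13 (125), and, in Ly6Chi MoMac of vehicle mice, Irf5 in mouse 11 (2185), Irf8 in mouse 15 (1003) and Bhlhe40 in mouse 11 (3128). The library with 125 for Klf2 is the library that stood apart, which had the fewest genes detected (5343), whereas the Ly6Chi library of mouse 11 had the most of its group (14606).

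The change of Cebpa with Ac-6-FP in Ly6Chi minus that in Ly6Clo was 1.77 on the log2 scale (exact permutation p = 0.0317, limma adjusted p = 0.83), and 1.64 without mouse 13 (95% CI -0.0028 to 3.27, exact permutation p = 0.0635). With all mice, Cebpa was higher within mouse in Ly6Chi in 4 of 5 Ac-6-FP mice and in 1 of 5 vehicle mice.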

How the results depend on the processing

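The number of genes called between the subsets (896) was 1702 with the genes detected as covariate, 584 with edgeR, 467 with edgeR without mouse 15, 79 in vehicle and 545 in Ac-6-FP mice alone, and 642 to 1162 with 1 mouse left out. With Ac-6-FP in Ly6Chi it was 13, and 5 without a filter, 4 with the filter at 100, 0 with quantile normalization, the covariate or either edgeR fit, and 0 to 133 with 1 mouse left out. In Ly6Clo it was 9, and 2 with a pseudocount of 10, no filter, the filter at 100, the covariate or without mouse 13, 0 with quantile normalization or either edgeR fit, and 0 to 103 with 1 mouse left out. For the difference of changes it was 0, and 2 with the filter at 100, 1 with quantile normalization, 3 without the replicate block, 0 to 4 with 1 mouse left out and 3773 by the criterion of the study, applied to the 17248 genes tested here. Without the replicate block, 896 genes were called between the subsets, and Bhlhe40 was not (-2.14, adjusted p = 0.0813).

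Directions turned for members whose differences were not called, and the causes were not tested. Between the subsets they were Spi1 without mouse 13 (-0.23; -0.23 to 0.65 with 1 mouse left out), Cebpa in vehicle mice (-0.23) and Irf8 in Ac-6-FP mice (-0.17). With Ac-6-FP in Ly6Chi they were Spi1 with the covariate (0.12; -0.57 to 0.42 with 1 mouse left out), Cebpb with edgeR (0.23, and 0.089 without mouse 15; -0.73 to 0.11), Klf2 with edgeR without mouse 15 (0.38; -0.56 to 0.30) and Cebpa with 1 mouse left out (-0.15 to 0.56). In Ly6Clo, Spi1 was at -1.58 with quantile normalization, -0.49 with the covariate, -0.13 with edgeR and -0.45 without mouse 13 (-0.45 to 0.59). Klf2 was there at -1.14 with quantile normalization, -0.0065 with edgeR and -0.063 without mouse 15 (-0.18 to 0.34), and Klf4 at -0.076 with the covariate and -0.17 without mouse 13 (-0.17 to 0.81). For the difference of changes, Spi1 was at 0.81 with quantile normalization, 0.083 with the covariate, 0.064 with edgeR and 0.88 without mouse 13 (-1.10 to 0.88). With edgeR without mouse 15, Cebpb was at -0.14 (-0.42 to 0.31), Klf2 at 0.27 (-0.69 to 0.28) and Klf4 at -0.44 (-0.50 to 0.74), and Bhlhe40 was at 0.0068 without mouse 13 (-1.43 to 0.0068). Klf2, Spi1 and Cebpb had the fewest reads per library (medians of 48, 98 and 96), and whether this bears on their spread was not tested.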
